A study of Ursus arctos with 12 samples.

Results

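The cell cycle and proliferation genes were followed in the vastus lateralis, a thigh muscle, of free-ranging brown bears (Ursus arctos). The set was a list of 46 gene symbols, and a symbol entered when its row of the raw count table held 30 or more reads summed over the 12 libraries. This gave 45 members of the 30249 genes in the table and of the 17290 genes tested. CDT1, a replication licensing factor, was not matched to a row and was not analysed here. All 45 matched rows passed the read minimum, so no member was lost to the filter. The samples were biopsies of 6 bears aged 2 to 3 years, each taken once during winter hibernation and once in the active period in summer of the same year. By the study's methods the winter capture preceded the summer capture, so the effect of season and that of the order of capture cannot be told apart. No treatment was compared. Stranded poly-A libraries gave 16742406 to 32140160 counted reads each.

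A cell that enters division passes through G1, when D-type cyclins and their kinases phosphorylate the retinoblastoma pocket proteins and free the E2F factors. E2F factors then switch on the genes of DNA replication, and a later wave of genes builds the mitotic spindle and the checkpoint that guards it. Adult muscle fibres have left the cell cycle permanently, and in muscle tissue division is known from satellite cells, which are the muscle stem cells, and from the fibroblasts, vessel cells and immune cells between the fibres. CDK inhibitors such as p21 and p27 hold resting cells out of the cycle.

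Most of the change was a fall of the mitotic genes and of the D-type cyclins in winter. Of the 45 members, 19 fell and 4 rose in winter, called where edgeR's quasi-likelihood test, blocked by bear, gave a Benjamini-Hochberg adjusted p below 0.05. That test gives the adjusted p values here, except where another tool is named. This is 42.2% lower and 8.89% higher. Over all genes tested, 21.2% were lower and 19.6% higher. The median log2FC of the members was −0.46 and that of all genes −0.01. Under a stricter rule, an adjusted p below 0.01 with a fold above 1.3 or under 0.77, 15 members were lower and 2 higher, where 13.4% of all genes were lower and 12.2% higher. Winter was below summer in 6 of 6 bears for 17 members, against 19.0% of all genes, and above it in 6 of 6 for 2, against 18.4%. The winter and summer levels did not overlap for 3 members that were lower, CCND1, CCND2 and CDKN2C (8.21% of all genes), and for 1 that was higher, RB1 (9.12% of all genes). Without the bear as a block, 19 members were lower and 2 higher. Levels are given in CPM, read counts scaled to library size with TMM factors, folds as log2FC, the log2 fold change of winter over summer, and SE is its standard error. In bulk muscle fewer cells of a type and less RNA per cell cannot be told apart.

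**Figure D1:**
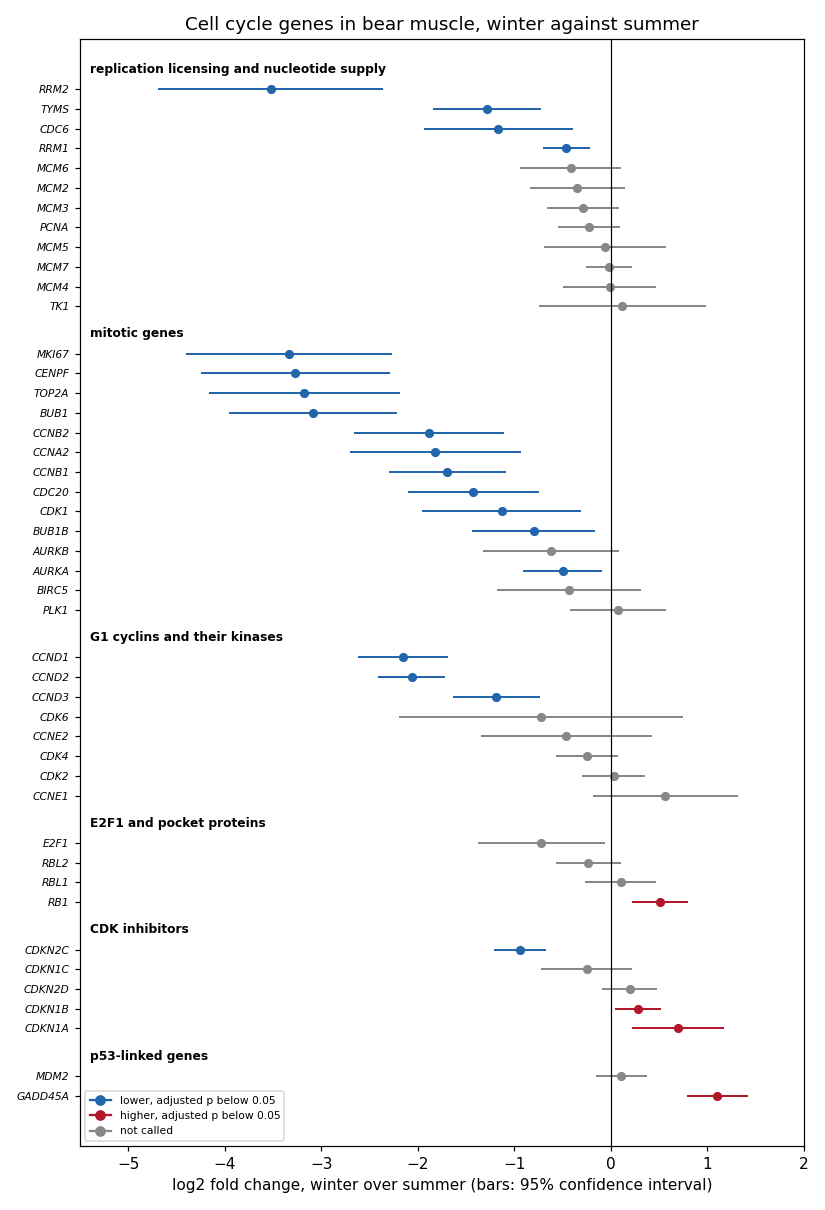
Log2FC of winter over summer for the 45 members, in 6 role groups, with the 95% confidence interval as a bar. Members called lower are blue, those called higher are red and the others grey. RRM2, MKI67, CENPF, TOP2A and BUB1 lie furthest to the left, at −3.52 to −3.09, and GADD45A furthest to the right, at 1.11.

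The 14 mitotic members fell most often. In winter 11 of them (78.6%) were lower and 0 higher, with 0 higher at an unadjusted p below 0.05, 0 in DESeq2 and 0 in limma voom. Their median log2FC was −1.56, and winter was below summer in 6 of 6 bears for 9 of them.

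MKI67 encodes Ki-67, the classic marker of dividing cells, which coats mitotic chromosomes. Its level ran from 1.53 to 12.8 CPM in summer (median 5.94) and from 0.0563 to 3.42 CPM in winter (median 0.308), on 1 to 291 reads per library. Each bear was lower in winter, although the winter library of bear 1509, at 3.42 CPM, lay above the summer libraries of bears 1316 (2.34) and 1512 (1.53). The log2FC was −3.34 (SE 0.48, adjusted p = 0.000409), a 10.1-fold lower level. TOP2A, the topoisomerase that untangles replicated chromosomes, went from 1.84 to 14.4 CPM in summer (median 7.25) to 0.084 to 4.80 CPM in winter (median 0.44). Again 6 of 6 bears were lower and bear 1509 alone kept the seasons from separating. TOP2A had a log2FC of −3.18 (SE 0.44, adjusted p = 0.000356).

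CENPF, a kinetochore protein made in late cycle, ran from 0.704 to 6.04 CPM in summer (median 3.70) and from 0.042 to 1.99 CPM in winter (median 0.166), with a log2FC of −3.27 (SE 0.44, adjusted p = 0.000279). Without bear 1509 this value was −3.95. BUB1, a kinase of the spindle checkpoint, was counted at 7 to 67 reads in summer and at 1 to 7 in winter. Its summer level of 0.274 to 2.91 CPM (median 1.18) compared with 0.042 to 0.386 CPM in winter (median 0.114). BUB1 fell by 3.09 on the log2 scale (SE 0.39, adjusted p = 0.000196), the lowest adjusted p of the mitotic members. These 4 genes, MKI67, TOP2A, CENPF and BUB1, were 8.5- to 10.1-fold lower in winter and lower in 6 of 6 bears. Winter reads per library were 1 to 62 for MKI67, 2 to 87 for TOP2A and 1 to 36 for CENPF, each time highest in bear 1509. The folds of the 4 genes thus rest on few winter reads in the other bears.

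The mitotic cyclins formed a second tier. CCNB1, the cyclin B1 that drives entry into mitosis, ran from 1.21 to 4.52 CPM in summer (median 2.85) and from 0.421 to 2.15 CPM in winter (median 0.709). CCNB1 was 3.23-fold lower (log2FC −1.69, SE 0.27, adjusted p = 0.00074). CCNA2, the cyclin A2 of S phase and G2, stood at 0.587 to 2.82 CPM in summer and 0.122 to 0.993 in winter, with a log2FC of −1.82 (adjusted p = 0.00438). CCNB2, a second B-type cyclin, had 1 to 30 reads per library and a log2FC of −1.88 (adjusted p = 0.00177). CDC20, which activates the anaphase-promoting complex, went from 0.939 to 3.16 CPM in summer to 0.204 to 1.27 in winter, with a log2FC of −1.43 (adjusted p = 0.00378). All 4 of these genes were lower in 6 of 6 bears and their seasons overlapped.

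Another 3 mitotic calls lay close to the threshold. CDK1, the kinase partner of the mitotic cyclins, ran from 0.859 to 3.29 CPM in summer (median 2.46) and from 0.612 to 1.6 CPM in winter (median 0.803), lower in 5 of 6 bears. The log2FC of CDK1 was −1.13 (SE 0.37, adjusted p = 0.0306). The call was lost on leaving out bear 1305 (0.0789), 1317 (0.0948) or 1511 (0.0959), and the alternatives spanned 0.00609 to 0.0959. BUB1B, which encodes the checkpoint protein BUBR1, stood at −0.80 (SE 0.28, adjusted p = 0.0449) and was lower in 5 of 6 bears. That call was lost in DESeq2 with the block (0.0511) and on leaving out bear 1305 (0.116), 1317 (0.128), 1509 (0.0652) or 1511 (0.109). Over the alternatives the adjusted p of BUB1B ran from 0.027 to 0.128. AURKA, the kinase of the spindle poles, was lower in 6 of 6 bears at −0.50 (SE 0.18, adjusted p = 0.0485). AURKA was not called on leaving out bear 1305 (0.144), 1316 (0.0807), 1317 (0.115) or 1512 (0.117), nor with no block (0.0511), DESeq2 with the block (0.0665), RLE scaling (0.0511), no filter (0.0512) or filterByExpr (0.0508). The alternatives spanned 0.0327 to 0.144.

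The other 3 mitotic members were not called. PLK1, a kinase of mitotic entry, ran from 1.84 to 3.67 CPM in summer and from 1.71 to 3.94 CPM in winter, with a log2FC of 0.08 and a 95% confidence interval of −0.41 to 0.57. PLK1 was higher in 3 bears and lower in 3. BIRC5, which encodes survivin, had a log2FC of −0.43 (interval −1.17 to 0.30). AURKB, the kinase that works with survivin in the chromosomal passenger complex, had one of −0.62 (interval −1.31 to 0.07, adjusted p = 0.139). The intervals of PLK1, BIRC5 and AURKB excluded a fall of the size seen for MKI67, TOP2A, CENPF or BUB1.

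**Figure D2:**
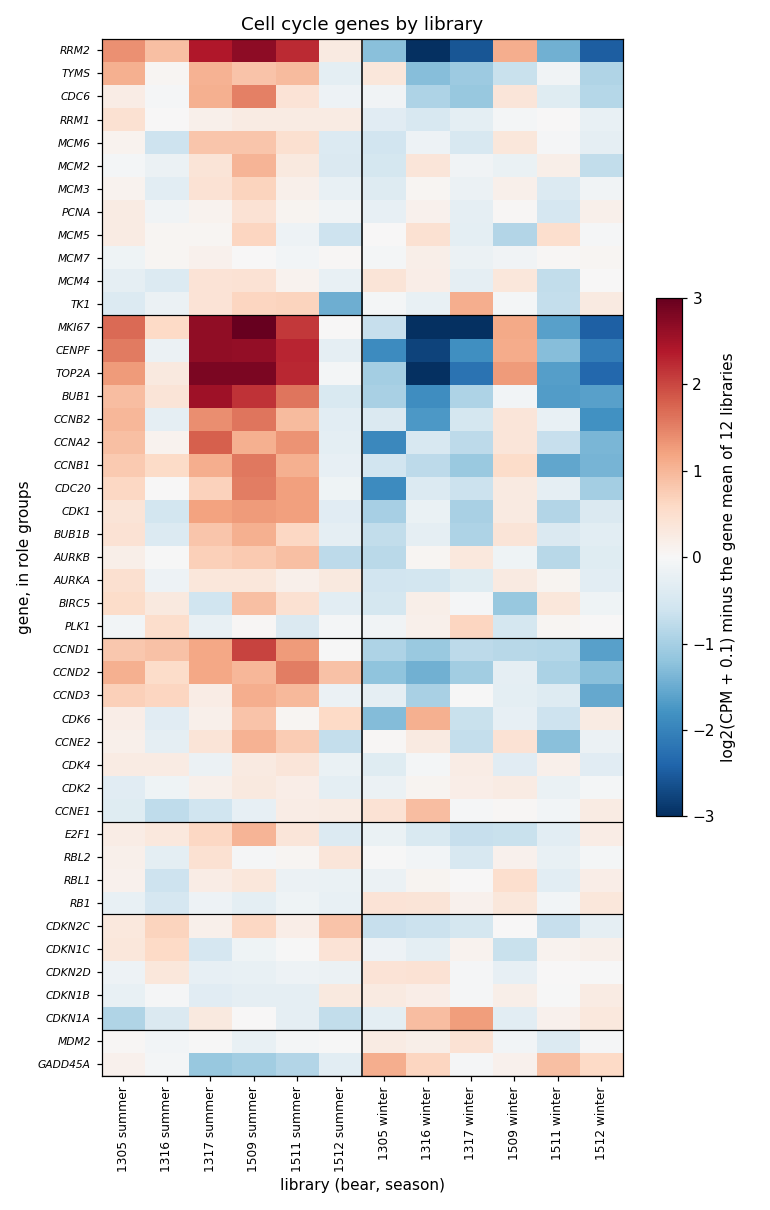
Level of the 45 members in the 12 libraries, as log2(CPM + 0.1) minus each gene's mean over the libraries, with role groups separated by lines and summer at the left. The mitotic rows from MKI67 to CDK1 are red in the summer libraries of bears 1317, 1509 and 1511. In those of bears 1316 and 1512 they are paler and in part below the gene mean, as for CENPF. They are mostly blue in the winter libraries, except that of bear 1509, where most are pale red.

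The summed level of the mitotic genes differed between bears. Summed over the 14 genes, the summer level was 35.2 CPM in bear 1305, 22.6 in bear 1316, 57.8 in bear 1317, 65.0 in bear 1509, 47.3 in bear 1511 and 18.5 in bear 1512. The winter sums of the same bears were 11.6, 13.1, 13.8, 27.0, 14.3 and 11.9 CPM. Apart from bear 1509 in winter, every winter sum lay below every summer sum. The log2 ratio of winter to summer ran from −2.07 in bear 1317 to −0.64 in bear 1512, and was below 0 in 6 of 6. In summer bear 1509 had the highest level of 8 of the 14 genes and bear 1512 the lowest of 9. Not every gene followed the sum. The highest summer level of PLK1 lay in bear 1316 and that of AURKA in bear 1305, and the lowest of BIRC5 in bear 1317. In winter bear 1509 had the highest level of 11 of the 14 and the lowest of 2, PLK1 and BIRC5. The winter library of bear 1509 was also the highest winter library for 21 of all 45 members, was the shallowest library at 16742406 reads, and had a TMM factor of 1.08 where the other winter libraries had 0.923 to 0.982. Without bear 1509, 18 members were lower and 3 higher, and 10 of the mitotic members were lower. The part of this library in the levels was not tested beyond leaving it out.

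Among the replication members fewer were called. Of the 12 analysed, 4 (33.3%) were lower and 0 higher, with 0 higher at an unadjusted p below 0.05, 0 in DESeq2 and 0 in limma voom, and the median log2FC was −0.32. The 4 were 3 genes of deoxynucleotide supply and CDC6. RRM2, the regulated subunit of ribonucleotide reductase, which makes the building blocks of DNA, ran from 1.02 to 5.80 CPM in summer (median 3.26) and from 0 to 1.88 CPM in winter (median 0.153). The winter library of bear 1316 held 0 RRM2 reads, which allows up to 0.126 CPM by counting error alone, and those of bears 1317 and 1512 held 1 and 2. The log2FC of RRM2 was −3.52 (SE 0.52, adjusted p = 0.000505) and −4.29 without bear 1509, with 6 of 6 bears lower.

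RRM1, the large subunit of the same enzyme, fell far less. RRM1 stood at 30 to 40.8 CPM in summer (median 35.3) and 21.4 to 30.2 CPM in winter (median 24.9), with a log2FC of −0.46 (SE 0.11, adjusted p = 0.0057), lower in 6 of 6 bears. The confidence intervals of the 2 subunits, −4.68 to −2.37 for RRM2 and −0.69 to −0.23 for RRM1, did not overlap. TYMS, thymidylate synthase, went from 1.25 to 3.39 CPM in summer (median 3.01) to 0.588 to 2.00 CPM in winter (median 0.86), a log2FC of −1.29 (SE 0.25, adjusted p = 0.0023) with 6 of 6 bears lower. CDC6, which loads the replicative helicase onto origins, had 3 to 36 reads per library and a log2FC of −1.17 (SE 0.34, adjusted p = 0.0199). The adjusted p of CDC6 was 0.0555 without bear 1317, within 0.0135 to 0.0555 over the alternatives.

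None of the 6 subunits of the MCM helicase, which opens DNA at the origins, was called, nor were PCNA and TK1. The log2FC values of MCM2 to MCM7 lay between −0.41, for MCM6, and −0.01, for MCM4, and their adjusted p values between 0.178 and 0.976. MCM7 was among the steadiest members, at 21.7 to 26.0 CPM in summer and 21.1 to 26.8 CPM in winter, with a confidence interval of −0.24 to 0.21. PCNA, the sliding clamp of the replicative polymerases, ran from 17.8 to 26.2 CPM in summer and from 13.6 to 21.4 in winter, at −0.23 (interval −0.54 to 0.08). TK1, the thymidine kinase of S phase, stood at 0.12 with a wide interval of −0.73 to 0.97 on 9 to 47 reads per library.

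The 3 D-type cyclins were all lower in winter in 6 of 6 bears, without overlap of the seasons for CCND1 and CCND2 and with overlap for CCND3, while 0 of the other 5 genes of their group, the kinases and E-type cyclins, passed the test. No gene of this group was higher (0 in edgeR, 0 at an unadjusted p below 0.05, 0 in DESeq2 and 0 in limma voom). CCND2, the cyclin D2 gene, stood at 122 CPM in bear 1305, 85.1 in bear 1316, 131 in bear 1317, 116 in bear 1509, 171 in bear 1511 and 107 in bear 1512 in summer. In winter the same bears had 25.3, 21.5, 28.2, 48.3, 30.4 and 24.3 CPM, so the seasons did not overlap. CCND2 fell by 2.06 on the log2 scale (SE 0.15, adjusted p = 1.22e-05), a 4.17-fold lower level on 501 to 4278 reads per library. CCND1, the cyclin D1 induced by growth factors, ran from 2.00 to 8.52 CPM in summer (median 4.25) and from 0.586 to 1.13 CPM in winter (median 1.05). Its winter levels all lay below every summer level, with a log2FC of −2.15 (SE 0.21, adjusted p = 4.83e-05).

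CCND3, the cyclin D3 of differentiating muscle cells, went from 3.64 to 8.96 CPM in summer (median 6.67) to 1.37 to 4.11 CPM in winter (median 3.25). The log2FC was −1.18 (SE 0.20, adjusted p = 0.00103), and bear 1317 changed least, from 4.86 to 4.11 CPM. The call of each D-type cyclin held in every alternative, with adjusted p values of at most 0.00503.

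The kinases and E-type cyclins were not called, which does not show that they were the same in both seasons. CDK4, the kinase activated by the D-type cyclins, ran from 12.6 to 18.5 CPM in summer and from 11.2 to 16.9 CPM in winter (log2FC −0.25, adjusted p = 0.194). Without bear 1317 its value was −0.37 with an adjusted p of 0.048, within 0.048 to 0.397 over the alternatives. CDK2, the kinase of the E- and A-type cyclins, had a log2FC of 0.03 with an interval of −0.28 to 0.34. CCNE1 and CCNE2, the E-type cyclins of S phase entry, stood at 0.57 and −0.46 with adjusted p values of 0.203 and 0.378, on 4 to 36 reads per library. CDK6, the second D-cyclin kinase, was counted at 0 to 10 reads per library, with an interval of −2.18 to 0.74 that allows a change of either sign. The 0 lay in the winter library of bear 1305, where it allows up to 0.122 CPM.

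**Figure D3:**
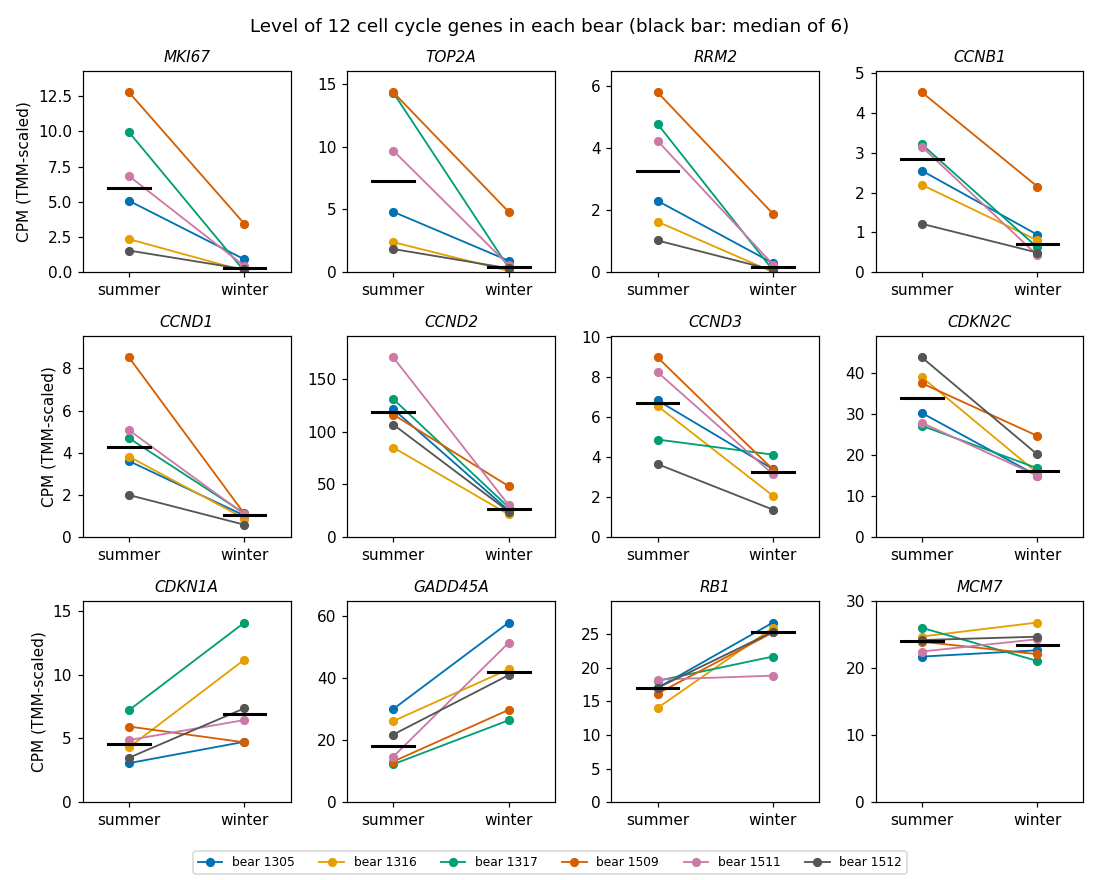
Level of 12 members in each bear in CPM, on linear axes from 0, with a line joining the summer and winter library of a bear and a black bar at the median of 6. CCND1, CCND2 and CDKN2C fall in all bears with no overlap of the seasons, RB1 rises with no overlap, and MCM7 stays between 21.1 and 26.8 CPM.

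E2F1 and the pocket proteins did not move as a group. RB1, the retinoblastoma protein that restrains E2F factors, was higher in winter. It stood at 17 CPM in bear 1305, 14 in bear 1316, 18.1 in bear 1317, 16.2 in bear 1509, 18.2 in bear 1511 and 17 in bear 1512 in summer. The winter levels were 26.7, 26.0, 21.7, 25.3, 18.8 and 25.4 CPM, each above the highest summer level. RB1 had a log2FC of 0.51 (SE 0.13, adjusted p = 0.00809), and bear 1511 rose least. RBL1 and RBL2, which encode the pocket proteins p107 and p130, had log2FC values of 0.10 (adjusted p = 0.644) and −0.23 (adjusted p = 0.234). E2F1, the activator released by RB1, ran from 1.53 to 4.26 CPM in summer and from 1.24 to 2.44 in winter, at −0.72 (SE 0.29, adjusted p = 0.0735) with 5 of 6 bears lower. E2F1 was not called, but its adjusted p was 0.0291 without the block, 0.0192 in DESeq2 without the block, 0.0486 with library totals and 0.015 without bear 1512 (log2FC −1), within 0.015 to 0.185 over the alternatives. Of these 4 genes 0 were lower in edgeR, with 1 at an unadjusted p below 0.05, 0 in DESeq2 with the block and 0 in limma voom.

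The 5 CDK inhibitors went in both directions. CDKN2C, which encodes p18, an inhibitor of CDK4 and CDK6, was lower in winter in all bears. Its summer levels were 30.2 CPM in bear 1305, 39.0 in bear 1316, 27.1 in bear 1317, 37.5 in bear 1509, 27.9 in bear 1511 and 43.8 in bear 1512, and the winter levels were 14.9, 15.6, 16.8, 24.7, 15.0 and 20.2 CPM. The seasons did not overlap, and CDKN2C fell by 0.94 on the log2 scale (SE 0.12, adjusted p = 0.000193).

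CDKN1A, which encodes p21, the inhibitor induced by p53, ran from 3.06 to 7.21 CPM in summer (median 4.58) and from 4.69 to 14.1 CPM in winter (median 6.90). It was higher in 5 of 6 bears, with bear 1509 going from 5.93 to 4.69 CPM. The log2FC of CDKN1A was 0.70 (SE 0.21, adjusted p = 0.0223). The call was lost with no block (0.0556) and on leaving out bear 1305 (0.0514), 1316 (0.0705), 1317 (0.0676) or 1512 (0.0715), and the alternatives spanned 0.00206 to 0.0715. CDKN1B, which encodes p27, stood at 49.3 to 76.3 CPM in summer and 60.8 to 75.3 CPM in winter, with bear 1512 highest in summer. Its log2FC of 0.29 (SE 0.10, adjusted p = 0.045) was not called with no block (0.0725), in DESeq2 with no block (0.0554), with library totals (0.208), with no filter (0.0916) or on leaving out bear 1305 (0.157), 1316 (0.0701), 1317 (0.0806), 1509 (0.0723) or 1511 (0.0751). The alternatives for CDKN1B spanned 0.0326 to 0.208. CDKN1C and CDKN2D, which encode p57 and p19, were not called, at −0.25 (interval −0.71 to 0.21) and 0.20 (interval −0.08 to 0.47).

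Both p53-linked members were well counted, and they differed. GADD45A, a stress gene that responds to DNA damage and growth arrest, was at 29.9 CPM in bear 1305, 26.1 in bear 1316, 12.2 in bear 1317, 13.1 in bear 1509, 14.6 in bear 1511 and 21.8 in bear 1512 in summer. In winter it was at 57.8, 42.8, 26.4, 29.7, 51.3 and 40.9 CPM. Each bear rose, and the seasons overlapped only through the low winter levels of bears 1317 and 1509. GADD45A rose by 1.11 on the log2 scale (SE 0.14, adjusted p = 0.000201), a 2.15-fold higher level and the largest rise among the members. MDM2, the ubiquitin ligase that degrades p53, ran from 64.8 to 77.7 CPM in summer and from 56.4 to 102 CPM in winter, at 0.11 (interval −0.15 to 0.37, adjusted p = 0.467).

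Other genes of the cell cycle were read from lists that hold none of the members. Of 42 other mitotic genes, 27 (64.3%) were lower and 1 higher, with a median log2FC of −1.54, and 24 were lower in 6 of 6 bears. In 10 of the 42 a library held 0 reads, and a gene could pass the read minimum through its summer reads alone. With filterByExpr, which leaves out genes of low count, 18 were lower. Over the alternatives 18 to 28 were lower and 0 to 1 higher. KIF23, a motor of the dividing cell's midzone, had 28 to 140 reads in summer and 3 to 18 in winter (log2FC −3.23, SE 0.34, adjusted p = 8.13e-05). KIF15, a spindle motor, stood at −1.97 (adjusted p = 0.000296). The 1 that rose was KIF20B, also a kinesin, at 0.71 (adjusted p = 0.0258) and higher in 6 of 6 bears.

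The 40 other replication genes went in both directions, with 11 higher (27.5%) and 6 lower (15%), where 19.6% of all genes were higher and 21.2% lower. Their median log2FC was 0.06. ORC2, a subunit of the origin recognition complex, rose by 0.74 (adjusted p = 0.000359) and DUT, which clears dUTP, by 0.99 (adjusted p = 0.000418) on the log2 scale. POLE, the catalytic subunit of the leading-strand polymerase, was lower at −1.31 (adjusted p = 0.00129) and UHRF1, which maintains DNA methylation at the fork, at −0.95 (adjusted p = 0.00924). Over the alternatives 4 to 13 of these genes were higher and 2 to 6 lower.

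Of 15 other E2F, DREAM and MuvB genes tested, 3 were higher and 3 lower, 20% each way. Over all genes tested, 19.6% were higher and 21.2% lower, so this share was near that of all genes. E2F2, an activator like E2F1, was counted at 5 to 35 reads in summer and 0 to 1 in winter, 4 reads over the 6 winter libraries (adjusted p = 0.000107). E2F3 was lower at −0.62 (adjusted p = 0.00468), while LIN54, a DNA-binding subunit of the MuvB core, rose by 0.86 (adjusted p = 0.000299) and the repressor E2F6 by 0.45 (adjusted p = 0.00435) on the log2 scale. Among 32 other cyclins, CDKs and their regulators, 6 were higher and 6 lower, 18.75% each way and again near the share of all genes. CCNT1 and CCNT2, the cyclins of the transcription elongation factor P-TEFb, rose by 0.86 and 0.86 on the log2 scale (adjusted p = 0.000919 and 0.000125). CDK16 was lower at −0.51 (adjusted p = 0.00191), and CCNF, cyclin F, had 4 to 35 reads in summer and 0 to 5 in winter (adjusted p = 0.00461). CCNF also stood on the list of other mitotic genes.

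Of 19 genes of the ubiquitin ligases APC/C and SCF, 6 were higher (31.6%) and 5 lower (26.3%). ANAPC16, a small APC/C subunit, rose by 1.23 (adjusted p = 1.67e-05) and CUL1, the SCF scaffold, by 0.85 (adjusted p = 0.00066) on the log2 scale, while FBXW7, which targets cyclin E, was at −0.62 (adjusted p = 0.0145) and CDC16, also of the APC/C, at −0.44 (adjusted p = 0.0168). Over the alternatives 4 to 6 were higher and 0 to 5 lower. Of 26 other p53 and DNA damage genes, 4 were higher (15.4%) and 5 lower (19.2%), where 19.6% of all genes were higher and 21.2% lower. EDA2R, a receptor gene induced by p53, went from 4 to 15 reads in summer to 25 to 163 in winter (log2FC 2.77, SE 0.37, adjusted p = 0.000251), and ATR, a kinase that senses stalled replication, rose by 0.86 (adjusted p = 0.000641) on the log2 scale. TIGAR and CHEK2 were lower, at −0.63 (adjusted p = 0.00409) and −1.14 (adjusted p = 0.0069). The 2 other CDK inhibitors tested, CDKN2B and CDKN3, gave 0 calls in edgeR, with 0 at an unadjusted p below 0.05, 0 in DESeq2 and 0 in limma voom.

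Markers of several cell types between the fibres were also called lower in winter, in differing shares, where 21.2% of all genes were lower. Of 8 fibroblast and fibro-adipogenic markers 6 were lower and 0 higher, and their summed level was 2681 to 7613 CPM in summer and 202 to 1089 in winter. A sum weighs the genes of highest level most. In this list the collagens COL1A1 and COL3A1 had log2FC values of −5.17 and −5.08. The median of the list was −2.05, and CD34 stood at −0.92. Of 8 macrophage markers 6 were lower (94.0 to 143 CPM summed in summer, 40.9 to 80.0 in winter), of 7 endothelial markers 5 lower and 1 higher (610 to 942 and 412 to 475 CPM), and of 7 smooth muscle and pericyte markers 4 lower (469 to 602 and 266 to 343 CPM). Of 7 lymphocyte markers 3 were lower (9.54 to 15.6 and 6.45 to 11.6 CPM), and of 8 satellite cell and myoblast markers 4 were lower (41.8 to 58.1 and 27.0 to 63.1 CPM). The satellite cell sum was lower in 3 of 6 bears, with a median of 47.8 CPM in summer and 53.1 in winter. This sum too follows its genes of highest level. The median log2FC of the satellite cell list was −0.66, and 0 of its genes were called higher in edgeR, DESeq2 or limma voom.

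PAX7, the marker of satellite cells, was at 0.763 to 2.19 CPM in summer and 0.552 to 1.02 in winter, with a log2FC of −0.77 (adjusted p = 0.0484) and 5 of 6 bears lower. PECAM1 of endothelium was at −0.42 (adjusted p = 0.0157) and PTPRC of white blood cells at −0.57 (adjusted p = 0.0443). PDGFRA of fibro-adipogenic cells, at −0.46 (adjusted p = 0.0778), CD68 of macrophages, at −0.86 (adjusted p = 0.0901), and ACTA2 of smooth muscle, at −0.35 (adjusted p = 0.0922), were not called. None of these 6 genes was at 0 in any library. CALCR, a satellite cell marker, had 0 reads in 3 winter libraries.

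Of the remaining lists, 1 of 5 adipocyte markers was lower (297 to 1376 CPM summed in summer, 216 to 459 in winter), as was 1 of 5 Schwann cell markers (40.8 to 97.9 and 39.8 to 147 CPM). The 4 neutrophil and red cell precursor markers tested (0.239 to 5.55 CPM summed in summer, 1.13 to 3.81 in winter) gave 0 calls in edgeR, with 0 at an unadjusted p below 0.05, 0 in DESeq2 and 0 in limma voom. The libraries held the markers of the labelled tissue. The 8 fibre markers tested summed to 112752 to 188326 CPM in summer and 121144 to 160119 in winter, with 2 higher and 2 lower. ACTA1, the skeletal muscle actin, was lower at −0.91 (adjusted p = 0.0152). ADIPOQ of adipocytes and S100A8 of neutrophils were not called, with adjusted p values of 0.999 and 0.504.

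The sums of the fibroblast markers and of the mitotic members shared some of their extreme libraries and not others. The fibroblast sums include COL1A1 and COL3A1, which fell more than the median of their list. In summer the lowest sums of both lists lay in bears 1316 and 1512, with 3046 and 2681 CPM of fibroblast markers. In winter the highest sum of both lay in bear 1509, with 1089 CPM of fibroblast markers. The highest summer sum lay in bear 1509 for the mitotic members and in bear 1511 for the fibroblast markers, and the lowest winter sum in bears 1305 and 1316. The largest fall was that of bear 1317 for the mitotic members (log2 ratio −2.07) and that of bear 1305 for the fibroblast markers (−4.54). The winter library of bear 1509 had the lowest satellite cell sum, at 27.0 CPM, and the highest Schwann cell sum, at 147 CPM. The part of these cell types in the fall of the cell cycle members was not tested.

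**Figure D4:**
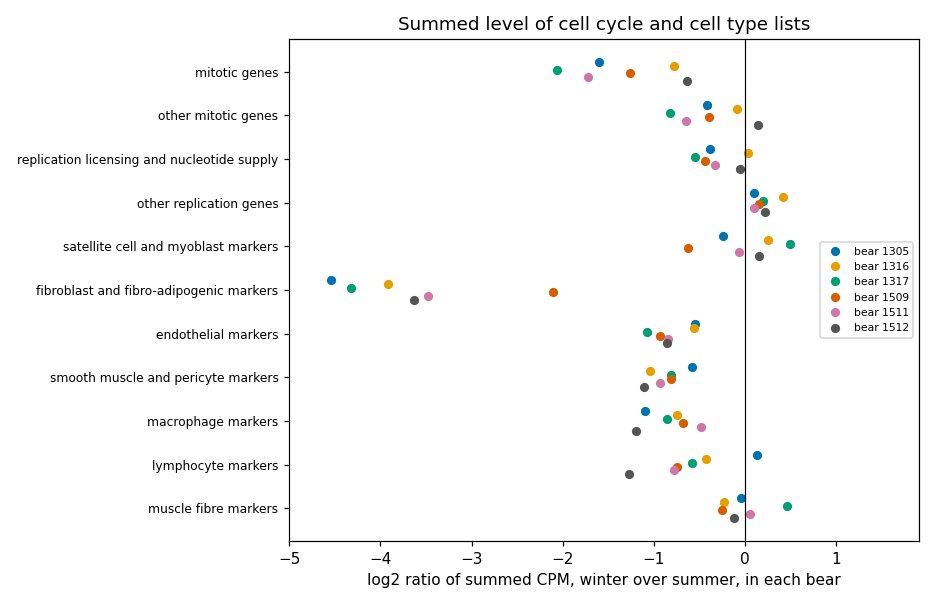
Log2 ratio of winter over summer of the summed CPM of 11 gene lists, with 1 point per bear. The fibroblast list includes the collagens COL1A1 and COL3A1. A sum weighs the genes of highest level most, and the median log2FC of the satellite cell markers was −0.66. The mitotic members lie below 0 in 6 of 6 bears, at −2.07 to −0.64, as do the fibroblast, endothelial, smooth muscle and macrophage markers, while the satellite cell markers, the muscle fibre markers and the lymphocyte markers have bears on both sides of 0.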

How the data were processed

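The authors prepared stranded poly-A libraries from muscle of 6 bears in 2 seasons, sequenced single reads, aligned them to ASM358476v1 with TopHat2 2.1.1 and counted reads per gene on the opposite strand with featureCounts 1.6.2, with versions as in the submitters' processing notes. The 2 sequencing lanes were not assigned to libraries in the sources used here, so a lane effect was not tested. The deposited values are these raw counts, whole reads per gene, without normalization. The test used the genes with at least 30 reads summed across the table's 12 columns. edgeR 4.0.16 (glmQLFit and glmQLFTest, in R 4.3.3) fitted season with the bear as a replicate block, on TMM-scaled library sizes, with Benjamini-Hochberg adjustment over 17290 genes, called at an adjusted p below 0.05. Directions per bear rest on log2 CPM with a prior count of 2. The limit given for a count of 0 is 3 reads and covers counting error only.

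The bears are the same animals in both seasons by the methods. Within a bear, the winter and summer libraries' departures from their season's mean had r of 0.0903 to 0.344, against a median of −0.0634 and a highest value of 0.142 for the 30 pairs of different bears, so the ranges overlapped. The block rests on the animals, not on these values. The lowest chi-square per gene between libraries of a season was 35.8, so no 2 libraries of a season agreed within sampling noise.

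Alternatives were edgeR without the block, DESeq2 1.42.0 with and without it, limma 3.58.1 voom, RLE, library totals, no filter, filterByExpr, each bear left out and stricter thresholds. On counts simulated for the seasonal comparison of 6 bears, with 200 of 17136 genes changed, the fit with the block recovered 92% of those changed 2-fold and 100% of those changed 4-fold and called 11 others. The changed genes were drawn only from those with about 30 or more reads per library on average, and all genes were given the same spread. These rates therefore do not cover members of lower count, such as CCNB2, BUB1, CDC6 and CDK6.

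The members and lists were chosen with earlier results of these data known. All members are accounted for. From each other cell cycle list the 2 called genes of lowest adjusted p in each direction are named, and from each marker list its first gene, with 1 exception that is not reported here. Listed names with no matching row or under 30 reads were not tested, among them E2F7, CCNA1, CDK11B, ANAPC2, CDKN2A, EGFL7, MS4A1, S100A12, MPO, SLC4A1, MYH7 and MYL1.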

Additional observations from a re-analysis of the deposited data

Results flagged for a closer look

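Among the 90 groups examined, the 6 libraries of a season for each of 45 genes, 1 held a library that stood apart from the rest. CDKN2D was at 12 CPM (252 reads) in the summer library of bear 1316, where the other summer libraries lay at 7.95 to 8.49 CPM. The gap on the log2 scale was 0.841 of the range of the season, above Dixon's 95% critical value for 6 samples. Chance alone gives about 1 in 20 groups, or 4.5 here.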

How the results depend on the processing

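Of 23 called members, 17 kept direction and call in every alternative that could be fitted. The other 6 were CDC6, CDK1, BUB1B, AURKA, CDKN1A and CDKN1B, and no called member changed sign. With filterByExpr, CCNB2, BUB1 and CDK6 were left out. The number of members lower in winter ran from 15, with the stricter thresholds, to 20. The number higher was 4, and 2 without the replicate block, 2 with the stricter thresholds, 3 in DESeq2 without the block, 3 with library totals, 3 with no filter and 2 to 3 when a bear was left out. The 2 CDK inhibitors that were higher became 0 without the replicate block, 0 with stricter thresholds, 1 in DESeq2 without the block, 1 with library totals, 1 without the filter and 0 to 1 when a bear was left out. Of E2F1 and the pocket proteins 1 was lower, not 0, without the replicate block, in DESeq2 without it (1), with library totals (1) and without bear 1512, with 0 to 1 over the bears left out. Without the replicate block AURKA, CDKN1A and CDKN1B were not called (adjusted p = 0.0511, 0.0556 and 0.0725 in edgeR) and E2F1 was (0.0291), and the calls of the other members stayed as they were. With stricter thresholds 2115 of all genes were higher and 2325 lower. The causes were not tested, apart from the genes or bears that an alternative removes and the thresholds that it tightens.

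Of the 22 members not called, 7 changed sign in an alternative. MCM4 was at 0.0020 in DESeq2 without the block, 0.016 in limma voom and 0.0020 with filterByExpr. When a bear was left out, MCM4 ran from −0.16 to 0.15, MCM5 from −0.21 to 0.23, MCM7 from −0.044 to 0.043, TK1 from −0.20 to 0.42, PLK1 from −0.083 to 0.21, CDK2 from −0.011 to 0.12 and RBL1 from −0.013 to 0.17. With library totals PLK1 was at −0.000023 and CDK2 at −0.048. Library totals moved the median of all genes to −0.08. The limit of 3 reads was 0.0977 to 0.181 CPM per library, and the winter medians of BUB1, RRM2 and CENPF lie within it.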
